A study of Mus musculus with 10 samples.

Results

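The BCL2 family genes Bcl2a1a, Bcl2a1b, Bcl2a1d, Mcl1, Bcl2, Bcl2l1, Bcl2l11, Bid, Bax and Bak1 were described in cells selected for Ly6G, the surface protein that marks mouse neutrophils. They are 10 of the 28185 genes in the table and were taken by name, with earlier results of these data known. The summed level of the 3 near-identical Bcl2a1 copies was followed beside them. All mice were male C57Bl/6J animals of 12 to 16 weeks and all had a myocardial infarction (MI), made by ligation of the left coronary artery, so that no group was uninjured. Cells were taken on day 3 from the digested left ventricle or from blood with anti-Ly6G microbeads, and mice had either received syngeneic bone marrow mesenchymal stromal cells (MSC) under the skin at 3 sites after ligation, or none. This gave 3 MI, 3 MI + MSC, 2 Blood and 2 Blood + MSC libraries, which are named here by group and library number. The comparisons ask whether MSC given away from the heart go with a different RNA profile of neutrophils in the infarct and in blood, and how cells from both sites differ.

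BCL2 family proteins decide whether the outer mitochondrial membrane stays intact. BAX and BAK, once active, open that membrane and release cytochrome c, which sets caspases in motion. The survival proteins BCL2, BCL-xL (from Bcl2l1), MCL1 and BFL1/A1 (from the Bcl2a1 genes) hold BAX and BAK in check, and the BH3-only proteins BIM (from Bcl2l11) and BID counter them. Neutrophils are short-lived cells that depend on MCL1, a protein with rapid turnover, and on A1, whose genes are induced by inflammatory signals. In most tissues BCL2 and BCL-xL are the more usual guards.

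Depth limited what could be seen of the rarer members. Gene reads per library ranged from 148594 in MI 13 and 268860 in Blood 21 to 8602711 in Blood + MSC 24, a 57.9-fold span. One normalized count, the unit used here, is a read number divided by the library's size factor, so 3 reads equal 25.2 normalized counts in MI 13 and 0.505 in Blood + MSC 24. MI 13 also stood apart from its group, with a correlation across genes of 0.707 to 0.733 with the other MI libraries, which had 0.968 between them. Ly6g itself was read in all libraries, with 2 to 35 reads per cardiac and 28 to 992 per blood library. The summed level of 11 neutrophil markers was 2496 to 13438 normalized counts in cells from the heart and 16403 to 51265 in cells from blood, while 8 cardiomyocyte markers summed to 3138 to 24250 and to 14.3 to 63.6. None of the 8 cardiomyocyte markers was at 0 in a cardiac library. Macrophage and monocyte markers, a list of 9, summed to 2639 to 11229 in the cardiac libraries, above the neutrophil sum in MI 13, MI 20, MI + MSC 15 and MI + MSC 18, and to 5733 to 8097 in blood. The cardiac libraries therefore held RNA of heart cells and of macrophage and monocyte marker genes beside that of neutrophils, and a lower level of a gene could mean fewer cells of a type or less RNA per cell, which cannot be told apart in such bulk samples. No label ties libraries to animals, so p-values measure the spread between these libraries.

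The Bcl2a1 copies are shown first because their likeness decides how far single rows can be read. On GRCm39 Bcl2a1d lies on chromosome 9 at 88605338 to 88613967 on the minus strand, and Bcl2a1a at 88838953 to 88844472 and Bcl2a1b at 89081262 to 89089889 on the plus strand. Their coding sequences have 516 bases each without the stop codon and differ at 12 positions in all. Bcl2a1a and Bcl2a1b differ at 11 bases (97.9% identity), Bcl2a1a and Bcl2a1d at 7 (98.6%) and Bcl2a1b and Bcl2a1d at 6 (98.8%). The first 120 coding bases, in which 7 of the 12 positions fall, are printed below with capitals at the positions where the copies differ.
Bcl2a1a: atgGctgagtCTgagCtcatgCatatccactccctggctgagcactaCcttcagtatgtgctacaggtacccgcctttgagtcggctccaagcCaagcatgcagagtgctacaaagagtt
Bcl2a1b: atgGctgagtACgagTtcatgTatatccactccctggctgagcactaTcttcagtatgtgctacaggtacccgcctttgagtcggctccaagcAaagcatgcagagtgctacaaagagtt
Bcl2a1d: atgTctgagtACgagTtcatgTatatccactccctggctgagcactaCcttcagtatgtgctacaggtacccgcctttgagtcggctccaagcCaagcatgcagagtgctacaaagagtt

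After the last of those capitals the window runs without a difference to its end, so a short fragment from there fits every copy. Of all 100-base stretches of a transcript, 43.5% in Bcl2a1a, 30.9% in Bcl2a1b and 55.0% in Bcl2a1d also occur in another copy. How reads that fit several copies were counted is not given in the sources used here, so values of single copies are uncertain and the sum is the safer measure. Bcl2a1b further shares 48.5% of its exon bases with Gm29094 on the same strand in the annotation used here, and Bax shares 10.3% with Gm45808 and Bcl2l11 0.682% with Gm74510.

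The 3 copies were all highest in the MI + MSC group, so the 250 bases before each annotated start are also given, from RefSeq on GRCm38.p6, with capitals on the sequence GAGGAAGT, the type bound by the myeloid factor PU.1. Its first base lies at -104, -148 and -104 from the start of Bcl2a1a, Bcl2a1b and Bcl2a1d.
Bcl2a1a, chr9:88956670-88956919, plus strand: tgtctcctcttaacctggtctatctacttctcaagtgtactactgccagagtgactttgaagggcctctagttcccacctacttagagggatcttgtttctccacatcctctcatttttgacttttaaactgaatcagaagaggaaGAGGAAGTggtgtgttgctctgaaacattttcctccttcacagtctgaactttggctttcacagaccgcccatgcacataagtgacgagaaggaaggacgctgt
Bcl2a1b, chr9:89199023-89199272, plus strand: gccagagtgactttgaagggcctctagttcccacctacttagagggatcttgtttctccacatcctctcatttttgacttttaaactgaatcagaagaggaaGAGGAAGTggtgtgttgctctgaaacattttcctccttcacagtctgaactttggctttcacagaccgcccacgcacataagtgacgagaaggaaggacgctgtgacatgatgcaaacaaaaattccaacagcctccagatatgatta
Bcl2a1d, chr9:88731851-88732100, minus strand: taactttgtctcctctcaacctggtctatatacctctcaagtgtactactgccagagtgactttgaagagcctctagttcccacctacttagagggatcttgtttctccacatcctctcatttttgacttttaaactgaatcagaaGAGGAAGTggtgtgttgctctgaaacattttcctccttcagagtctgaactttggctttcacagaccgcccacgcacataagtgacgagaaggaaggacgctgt

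On either strand GAGGAAGT was present in 3.20% of the 32851 RefSeq promoters searched, and among the members it also occurred in that of Bak1. TGANTCA, a pattern looser than the AP-1 site because it allows any middle base, was found in all 3 Bcl2a1 promoters. It was in no other member's, against 7.81% of all promoters. In each Bcl2a1 promoter it reads TGAATCA, while the AP-1 site has C or G in the middle. The GC box GGGCGG was in the promoters of all members but Bcl2l1 and Bak1, against 35.7% of all, and TATAAA was in none of them, against 13.6%. The NF-kB consensus matched 1 of 3 Bcl2l1 promoters and no other member's, against 8.46% of all promoters. A match describes these letters only.

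Per kilobase of transcript, Mcl1 was the highest member in all 10 libraries. It made up 64.5% to 88.3% of the summed level of the family per kb, with the lowest share in MI + MSC 15 and the highest in Blood 22. The Bcl2a1 sum ranked second in 9 libraries and below 3 death genes in Blood 22, and its share ran from 1.40% there to 25.3% in MI + MSC 15. Bcl2, the founding survival gene, was last in 9 libraries and held 0.0615% to 1.92%. Among the death genes Bcl2l11 made up 1.77% to 5.23% of the family level, Bak1 1.36% to 6.17%, Bid 0.899% to 3.35% and Bax 0.783% to 2.87%. The family mRNA of these cells was thus mostly Mcl1 and, in the heart, Bcl2a1, with the order below them changing between libraries. The shares are drawn in the stacked plot.

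**Figure D1:**
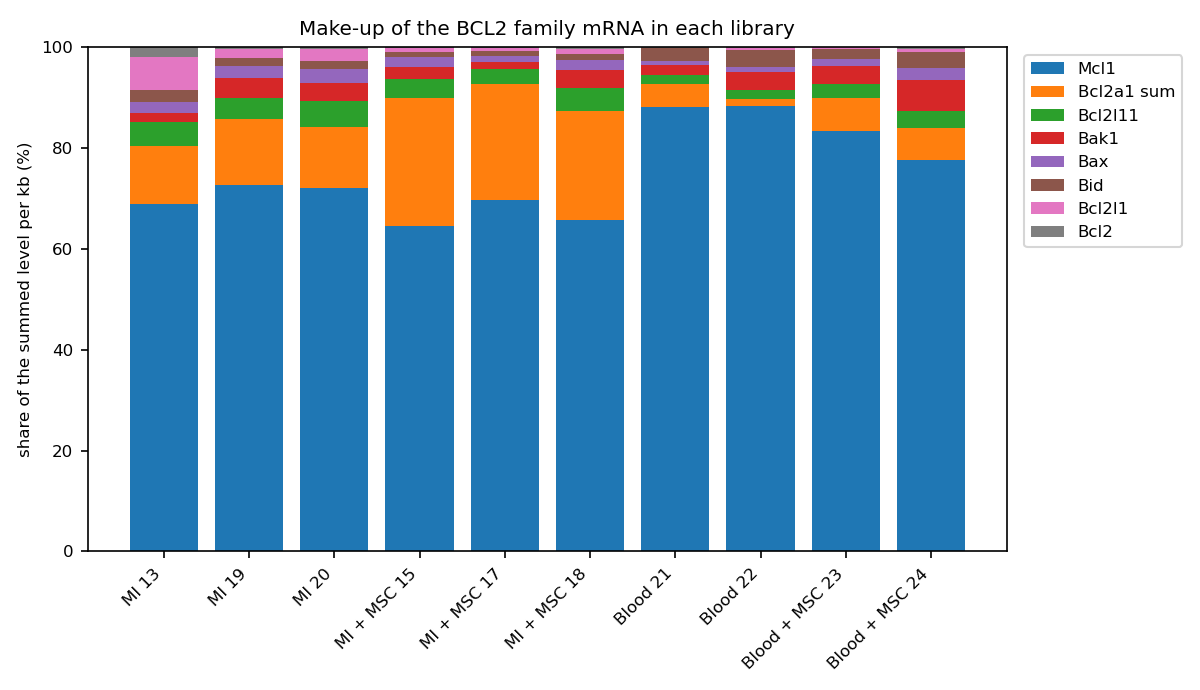
Share of each member in the summed BCL2 family level per kb (percent, vertical axis) in each of the 10 libraries (1 bar each), with the Bcl2a1 copies added up. Mcl1 takes 64.5% to 88.3% of every bar, and the Bcl2a1 part is widest in the 3 MI + MSC libraries.

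In the infarct, Bcl2a1 levels were higher with MSC than without in every library, about 4-fold for the group means, but the difference did not pass the test across all genes. The Bcl2a1 sum was at 75.6, 173 and 167 normalized counts in MI 13, 19 and 20, and at 627, 686 and 330 in MI + MSC 15, 17 and 18. The groups did not overlap, and the lowest MI library, MI 13, rested on 9 reads with an exact Poisson 95% interval of 34.6 to 144 (intervals cover counting error only). Their means were 139 ± 54.6 (SD, n = 3) and 548 ± 191 (SD, n = 3), with a limma log2 fold change of 1.99 ± 0.51 (SE) and an adjusted p of 0.45. DESeq2 on the reads recovered from the table called the sum, at 1.91 with an adjusted p of 0.021.

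Each copy alone showed the same order. Bcl2a1a was at 25.2, 68.2 and 55.1 normalized counts in MI 13, 19 and 20 and at 229, 285 and 92.9 in MI + MSC 15, 17 and 18. Bcl2a1b was at 25.2, 47.1 and 47.9 in the MI libraries and at 147, 181 and 100.3 in the MI + MSC libraries. Bcl2a1d was at 25.2, 57.7 and 64.3 in the MI libraries and at 250.1, 220.4 and 137 in the MI + MSC libraries. No copy overlapped between groups, MI + MSC 18 was the lowest treated library for each, and MI 13 had 3 reads for each. The log2 fold changes were 1.95, 1.80 and 2.06 for Bcl2a1a, Bcl2a1b and Bcl2a1d, with limma adjusted p of 0.52, 0.53 and 0.34. The last of these matched the lowest adjusted p of any gene in the comparison, and Bcl2a1d was the 1 member that DESeq2 called (1.86, adjusted p = 0.0018), where 0.22% of the genes with an adjusted p were called higher. Without MI 13, the log2 fold change of the sum was 1.61.

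Mcl1 was at 1883, 4048 and 4162 normalized counts in MI 13, 19 and 20 and at 6654, 8749.6 and 4166 in MI + MSC 15, 17 and 18. The groups did not overlap, but MI + MSC 18 and MI 20 were nearly level. Its log2 fold change was 0.98 (95% interval -0.28 to 2.24), with a limma adjusted p of 0.66, and 0.60 without MI 13. Bcl2l1, which codes for BCL-xL, was the 1 member that lay lower with MSC in every library, at 168, 89.4 and 127 in the MI and 70.3, 82.7 and 61.7 in the MI + MSC libraries, with a log2 fold change of -0.79 and a limma adjusted p of 0.62. Bcl2 overlapped, at 45.8 to 109 against 29.8 to 55.6, with a log2 fold change of -0.47 (95% interval -1.52 to 0.57), and it was -0.070 without MI 13. The survival genes thus did not share 1 direction in the heart.

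Bcl2l11, whose product BIM binds all survival proteins, was at 185, 334 and 436 normalized counts in MI 13, 19 and 20 and at 571, 553 and 412 in MI + MSC 15, 17 and 18. MI 20 lay above MI + MSC 18, and the log2 fold change was 0.75 (95% interval 0.03 to 1.47) with a limma adjusted p of 0.62, and it was 0.41 without MI 13, which had 22 reads. Bid, whose product links death receptors to mitochondria, was at 42.0, 59.6 and 59.2 against 62.9, 71.2 and 41.4, and its log2 fold change was 0.10 (95% interval -0.51 to 0.72). Among the effectors, Bax was at 16.8, 35.6 and 46.3 against 58.8, 43.6 and 35.9, and Bak1 at 33.6, 153 and 136 against 167, 117 and 155. Both overlapped between groups and rested on 2 and 4 reads in MI 13, and without that library the log2 fold change of Bak1 moved from 0.68 to 0.00.

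Of the 10 members, 4 lay higher with MSC in every cardiac library, where 7.05% of the 11549 tested genes did so, and 1 lay lower, where 9.6% did. By limma none was called in either direction, as was no gene at all (0% higher and 0% lower), with 925 genes at an unadjusted p under 0.05. At that unadjusted level 4 members were higher (Bcl2a1a, Bcl2a1b, Bcl2a1d and Bcl2l11; 3.26% of all genes) and 1 lower (Bcl2l1; 4.74%). edgeR also called no gene, with 968 at an unadjusted p under 0.05, and DESeq2 called 21 higher and 58 lower. The median log2 fold change was 0.72 over the members and -0.01 over all genes. The Bcl2a1 copies are among the 4 in both counts and enter this median. As they may share reads, 1 signal may be counted more than once. Beside these values, the summed endothelial markers ran from 1891 to 2052 in MI and from 422 to 830 in MI + MSC libraries, mural markers from 864 to 992 and from 236 to 566, and platelet markers from 462 to 642 and from 833 to 1757. Cardiomyocyte sums overlapped, at 8095 to 24250 and 3138 to 12602. So did neutrophil sums, at 2496 to 7916 and 2801 to 13438, and macrophage and monocyte sums, at 2639 to 7754 and 5545 to 11229. Within the neutrophil list, Ly6g in normalized counts lay lower in every MI + MSC than in every MI library, while each other marker overlapped. Ly6g had 2, 28 and 35 reads in MI 13, 19 and 20 and 10, 6 and 7 in MI + MSC 15, 17 and 18. Their part in the result was not tested.

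**Figure D2:**
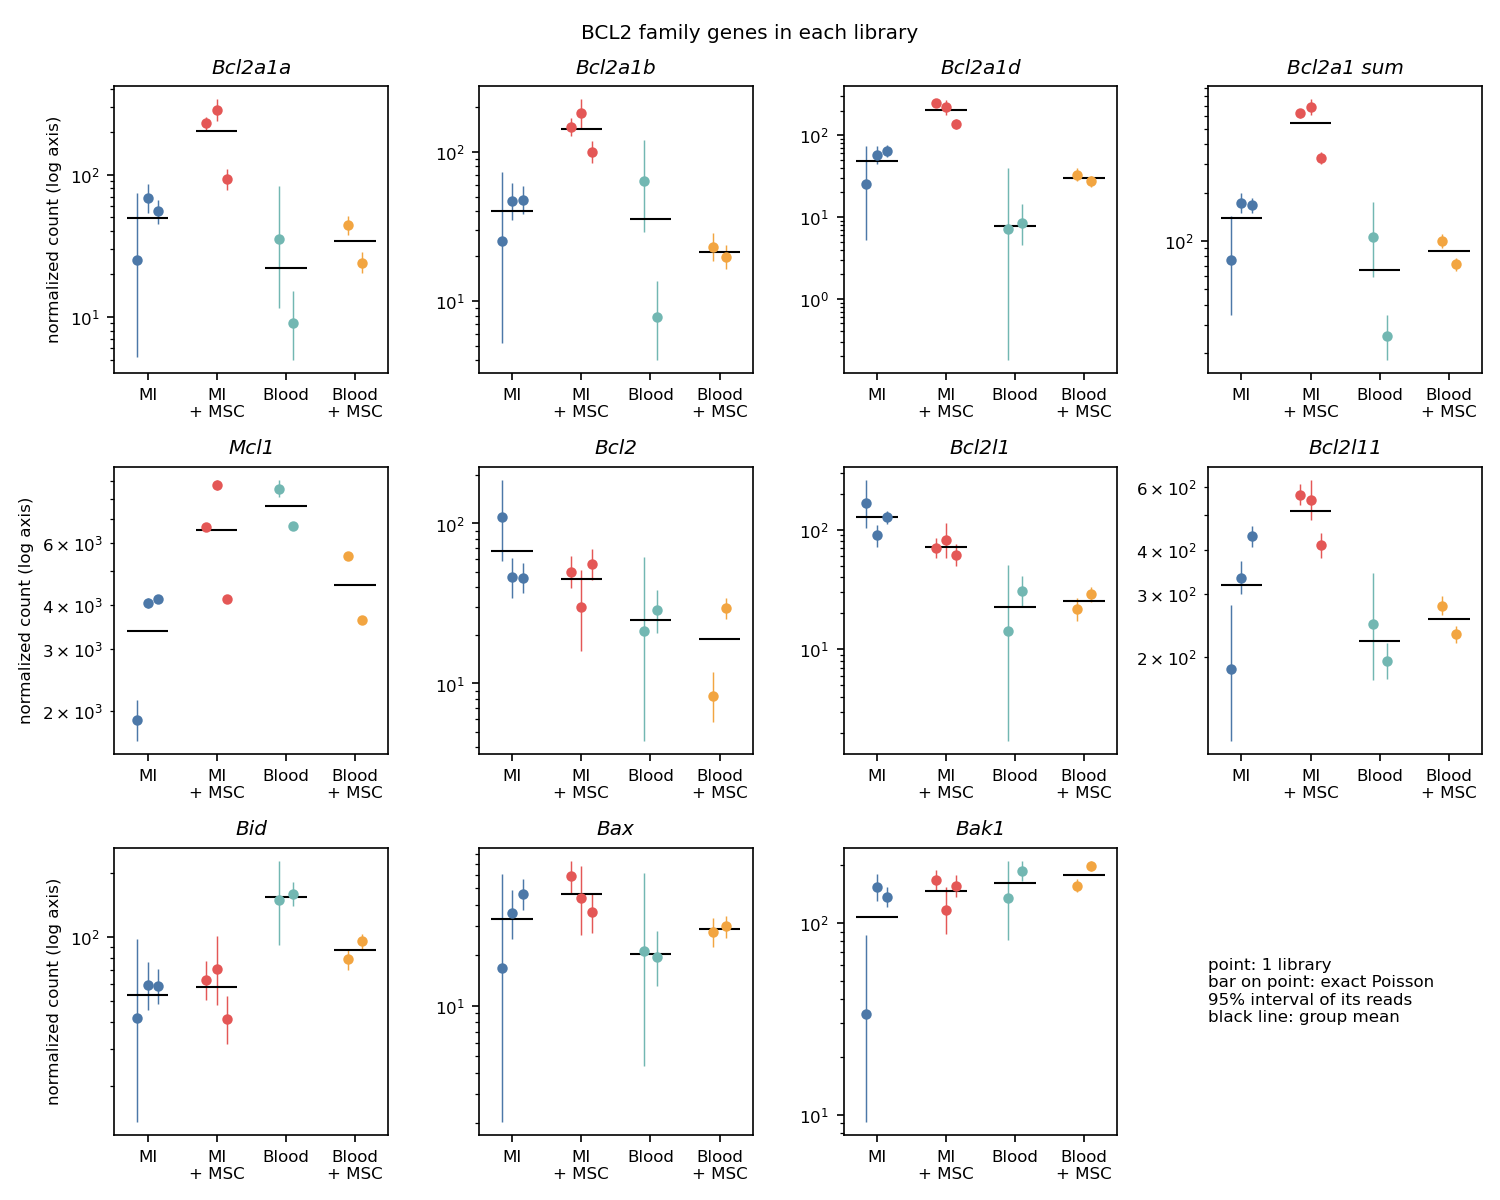
Normalized counts (vertical log axes, each panel with its own range) of the 10 members and the Bcl2a1 sum in the 4 groups, 1 point per library with an exact Poisson 95% interval of its reads and a black line at the group mean. The 3 MI + MSC points lie above the 3 MI points for each Bcl2a1 copy and Mcl1 and below them for Bcl2l1.

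In blood, no member passed the test between Blood + MSC and Blood. Bcl2a1d was at 7.07 and 8.45 normalized counts in Blood 21 and 22 and at 33.1 and 27.6 in Blood + MSC 23 and 24. The groups did not overlap, with a log2 fold change of 1.73 and a limma adjusted p of 0.67, but Blood 21 had 1 read for it, with an exact Poisson 95% interval of 0.179 to 39.4 normalized counts. The Bcl2a1 sum was at 106 and 25.3 in the Blood and at 100.3 and 71.5 in the Blood + MSC libraries, so both treated libraries fell between the untreated ones. Bcl2a1a, at 35.3 and 9.10 against 44.1 and 24.1, and Bcl2a1b, at 63.6 and 7.80 against 23.1 and 19.9, were as far apart within the Blood group. With the sum at a log2 fold change of 0.67 (95% interval -0.68 to 2.03), leaving out Blood 22 turned it to -0.32.

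Mcl1 lay lower with MSC in blood, at 8535 and 6678 normalized counts in Blood 21 and 22 and at 5494 and 3622 in Blood + MSC 23 and 24. These groups did not overlap, with a log2 fold change of -0.76 (95% interval -2.30 to 0.78) and a limma adjusted p of 0.84. Bid was likewise lower in both treated libraries, at 148 and 159.8 against 78.8 and 95.6, with a log2 fold change of -0.81 and a limma adjusted p of 0.67. Bax lay slightly higher with MSC, at 21.2 and 19.5 against 27.3 and 29.6, with 3 reads behind the value of Blood 21. The other members overlapped, with Bcl2 at 21.2 and 28.6 against 8.41 and 29.6, Bcl2l1 at 14.1 and 30.5 against 21.5 and 28.8, Bcl2l11 at 247 and 195 against 278 and 231, and Bak1 at 134 and 186 against 156 and 197.

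In all, 2 members lay higher and 2 lower without overlap between the blood groups, where 21% and 15.4% of all tested genes did so. limma called no gene in blood (0% higher and 0% lower, 848 at an unadjusted p under 0.05) and edgeR none (856), while DESeq2 called 4 higher and 175 lower, with no member among them. The limma count rested on Blood 22, without which 1113 genes were called higher and 393 lower (13% of all genes), with no member among them. The median log2 fold change was 0.18 over the members and 0.11 over all genes. The Blood libraries also differed in their cells, with platelet markers at 27378 normalized counts in Blood 21 against 602 to 1147 in the other blood libraries and erythroid markers at 9534 in Blood 22. Neutrophil markers stood at 44194 and 51265 in the Blood and at 23270 and 16403 in the Blood + MSC libraries. Their part in the result was not tested.

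Whether the MSC difference itself differed between heart and blood was tested as an interaction. No member was called, as was no gene by limma (0%; 838 at an unadjusted p under 0.05) or edgeR (815), while DESeq2 called 20 genes (18 higher, 2 lower) of the 801 to which it gave an adjusted p. Mcl1 was the 1 member among those 801, with a DESeq2 adjusted p of 0.065. Mcl1 had a log2 interaction of 1.74 (95% interval -0.25 to 3.73) with a limma adjusted p of 0.63, and the Bcl2a1 sum 1.31 (95% interval -0.44 to 3.07), also 0.63. Without MI 13 and Blood 21, the value of the sum was -0.0600. Without Blood 22, Bcl2a1b was called, at 3.28 with a limma adjusted p of 0.0080, where 9.48% of all genes were.

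Between infarct and blood some members passed the test, as many other genes did. Without MSC, Bcl2l1 and Bcl2a1d were higher and Bid was lower in MI than in Blood. Bcl2l1 was at 128 ± 39.4 (SD, n = 3) normalized counts in MI against 22.3 ± 11.6 (SD, n = 2), a log2 fold change of 2.46 ± 0.38 (SE) with a limma adjusted p of 0.0010. Bcl2a1d was at 49.1 ± 20.9 and 7.76 ± 0.976, a log2 fold change of 2.29 with an adjusted p of 0.0026 by limma. Bid was at 53.6 ± 10.03 and 154 ± 8.10, a log2 fold change of -1.51 with a limma adjusted p of 0.0048. Blood 21 had 2 reads for Bcl2l1 and 1 for Bcl2a1d, and MI 13 had 5 for Bid. These calls were 2 higher, where 21.2% of all genes were called, and 1 lower, where 13.5% were, so that the members were called about as often as genes in general.

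Of the members not called, the Bcl2a1 sum was at 139 in MI and 65.7 in Blood (1.28 on the log2 scale, limma adjusted p = 0.098), and Bcl2a1a and Bcl2a1b overlapped. Bcl2a1a was called by edgeR (2.04, adjusted p = 0.038), which called 2044 of 11549 genes higher and 2060 lower. Scaled to library totals, Bcl2a1a was called by limma too (1.70, adjusted p = 0.035). Single Blood libraries decided that value of the sum, which was 0.29 without Blood 22 and 2.27 without Blood 21, where it was called (limma adjusted p = 0.013). It was also called without both MI 13 and Blood 21 (2.65, limma adjusted p = 0.0013) and when scaled to library totals (1.78, limma adjusted p = 0.020). Mcl1 was lower in every MI than in every Blood library, at a mean of 3364 against 7607, with a log2 fold change of -1.25 and a limma adjusted p of 0.15, and DESeq2 called it (-1.18, adjusted p = 0.017), as it did 15.7% of all genes. Bcl2 was higher in every MI library, at 67.1 against 24.9 (1.25, limma adjusted p = 0.088). Without overlap 3 members were higher and 2 lower, where 31.6% and 23.6% of all genes were. Leaving out Blood 21, the shallow library rich in platelet RNA, raised the calls from 3 to 5 by adding Bcl2a1a (2.11) and Bcl2a1b (2.05), where 29.6% of all genes were called. Leaving out MI 13 with it gave 6, with Bcl2l11 (0.96) as the added one, where 38.3% were.

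With MSC, where no library had fewer than 665946 reads, 4 members were called higher in MI + MSC than in Blood + MSC and none lower, where 8.23% and 5.85% of all genes were called. All of these but Bcl2l1 are Bcl2a1 copies, which may share reads, so the 4 are not separate signals. The Bcl2a1 sum was at 548 ± 191 (SD, n = 3) against 85.9 ± 20.4 (SD, n = 2), a log2 fold change of 2.59 ± 0.57 (SE) with a limma adjusted p of 0.013. Bcl2a1a, Bcl2a1b and Bcl2a1d had log2 fold changes of 2.41, 2.59 and 2.62, with limma adjusted p of 0.026, 0.022 and 0.0028. Bcl2l1 was at 71.5 against 25.2, a log2 fold change of 1.44 with a limma adjusted p of 0.030. The sum lost its call without Blood + MSC 23 (2.83, limma adjusted p = 0.083) and without Blood + MSC 24 (2.36, limma adjusted p = 0.10). Bcl2a1d kept its call without any single library, but the calls fell from 4 to 1 without MI + MSC 15, without MI + MSC 17, without Blood + MSC 23 or without Blood + MSC 24, with Bcl2l1 lost without MI + MSC 18 too (1.54, adjusted p = 0.069 by limma). In these settings 8.32%, 10.3%, 2.3%, 4.4% and 6.23% of all genes were called in either direction, in the order given, against 14.1% with all libraries. The log2 fold changes of the lost members in those settings ran from 2.0 to 2.82 for Bcl2a1a, from 2.40 to 2.69 for Bcl2a1b and from 1.25 to 1.63 for Bcl2l1. Without MI 13, which enters only through the shared estimate of spread, Bcl2l11 was also called (0.99), making 5, where 22.9% of all genes were called.

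The remaining members were not called with MSC. Bcl2l11 was at 512 ± 87.1 (SD, n = 3) against 255 ± 33.4 (SD, n = 2), without overlap, at a log2 fold change of 0.99 and a limma adjusted p of 0.092. Mcl1 overlapped, with a log2 fold change of 0.48 (95% interval -0.92 to 1.89), and Bak1 did too (-0.27). Bcl2 (1.33) and Bax (0.63) were higher and Bid (-0.59) lower in every cardiac library. In all 7 members, the Bcl2a1 copies among them, were higher and 1 lower without overlap, where 33.8% and 29.7% of all genes were. The median log2 fold change was 1.16 over the members and 0.09 over all genes.

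Across both treatments, Bcl2l1 was at 61.7 to 168 normalized counts in the 6 libraries from the heart and 14.1 to 30.5 in the 4 from blood, and Bid at 41.4 to 71.2 and 78.8 to 159.8. Bcl2 separated by a hair, at 29.8 to 109 against 8.41 to 29.6. These were the 2 members higher and the 1 lower in all cardiac libraries, where 19.1% and 14% of all genes were. Heart cell RNA came with the cardiac libraries, as the cardiomyocyte sums of 3138 to 24250 against 14.3 to 63.6 show, and neutrophil markers were lower there. Their part in the result was not tested.

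**Figure D3:**
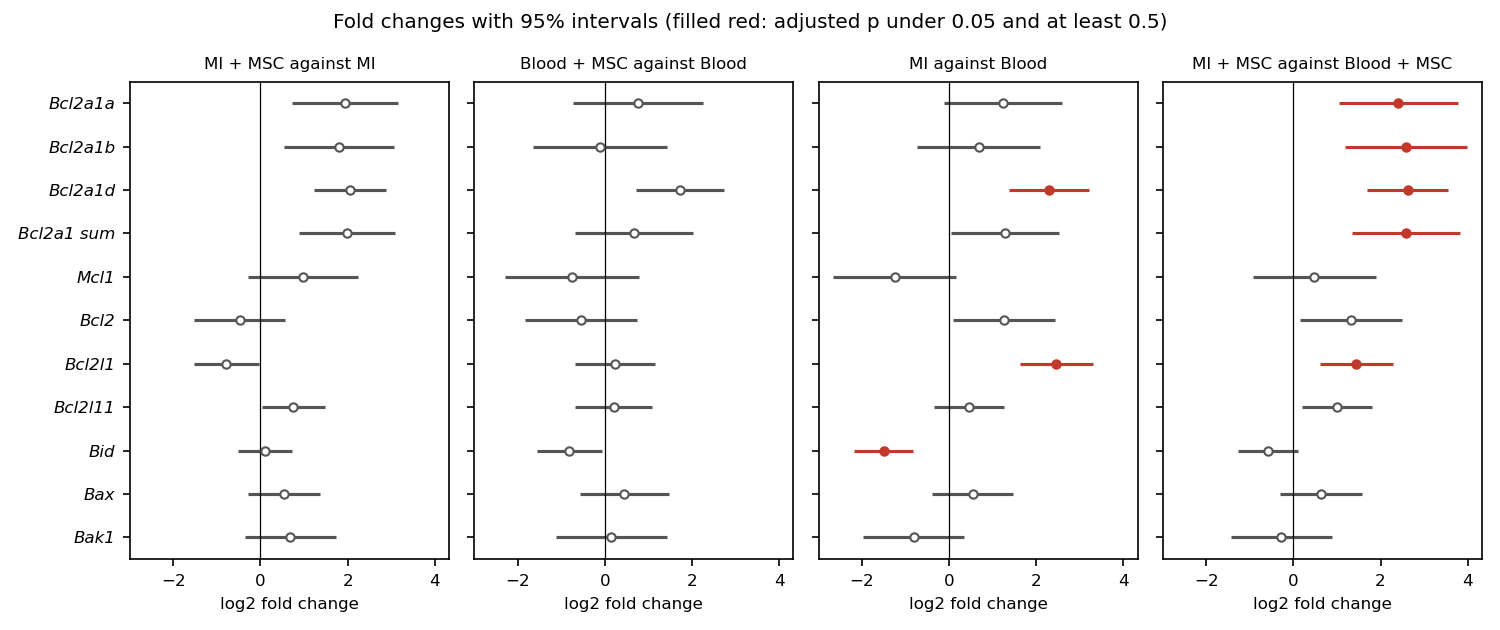
Log2 fold changes of the members and the Bcl2a1 sum with 95% intervals (limma, all 10 libraries) in the 4 comparisons, filled red where the adjusted p was under 0.05 and the change at least 0.5. Red points stand only in both comparisons of heart with blood, while the 3 Bcl2a1 copies lie between 1.80 and 2.06 for MSC in the heart without passing.

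Ratios between members within 1 library do not depend on its size factor, and they were computed per kb of transcript, after the values had been seen, so they are given without a test. Ratios of Mcl1, Bax and Bid to Bak1 and of Bcl2l1 to Bcl2 were computed too, and each overlapped between MI and MI + MSC. The Bcl2a1 sum to Mcl1 ratio was 0.168, 0.179 and 0.168 in MI 13, 19 and 20 and 0.392, 0.328 and 0.330 in MI + MSC 15, 17 and 18. It was 0.0525 and 0.0159 in Blood 21 and 22 and 0.0764 and 0.0823 in Blood + MSC 23 and 24. The 4 groups did not overlap, and MI 13, which stood apart in its levels, was level with its group here. The mean ratio was 0.171 ± 0.00634 (SD, n = 3) in MI and 0.350 ± 0.0366 (SD, n = 3) in MI + MSC. The value of Blood 21 rested on 15 Bcl2a1 reads, whose counting error alone gives 0.0294 to 0.0866, a range that holds both treated blood values, and that of MI 13 on 9 reads (0.0768 to 0.319). In these libraries Bcl2a1 was thus more abundant relative to Mcl1 with MSC in the heart, while in blood the order rested on few reads. Mcl1 itself lay higher with MSC in the heart and lower in blood, without passing a test.

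The Mcl1 to Bcl2l11 ratio, a survival gene over its BH3-only counterpart, was 14.7, 17.5 and 13.8 in the MI and 16.8, 22.9 and 14.6 in the MI + MSC libraries, which overlapped. In blood it was 49.9 and 49.5 without MSC and 28.5 and 22.6 with MSC, with 35 reads of Bcl2l11 behind the value of Blood 21. The Bcl2a1 sum to Bcl2l11 ratio was 2.47, 3.13 and 2.31 in MI, 4.82 to 7.50 in MI + MSC, 0.785 and 2.62 in untreated blood and 1.86 and 2.18 in treated blood. The MI + MSC libraries were the highest in both ratios that hold Bcl2a1, and the Blood libraries in the ratio of Mcl1 to Bcl2l11.

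**Figure D4:**
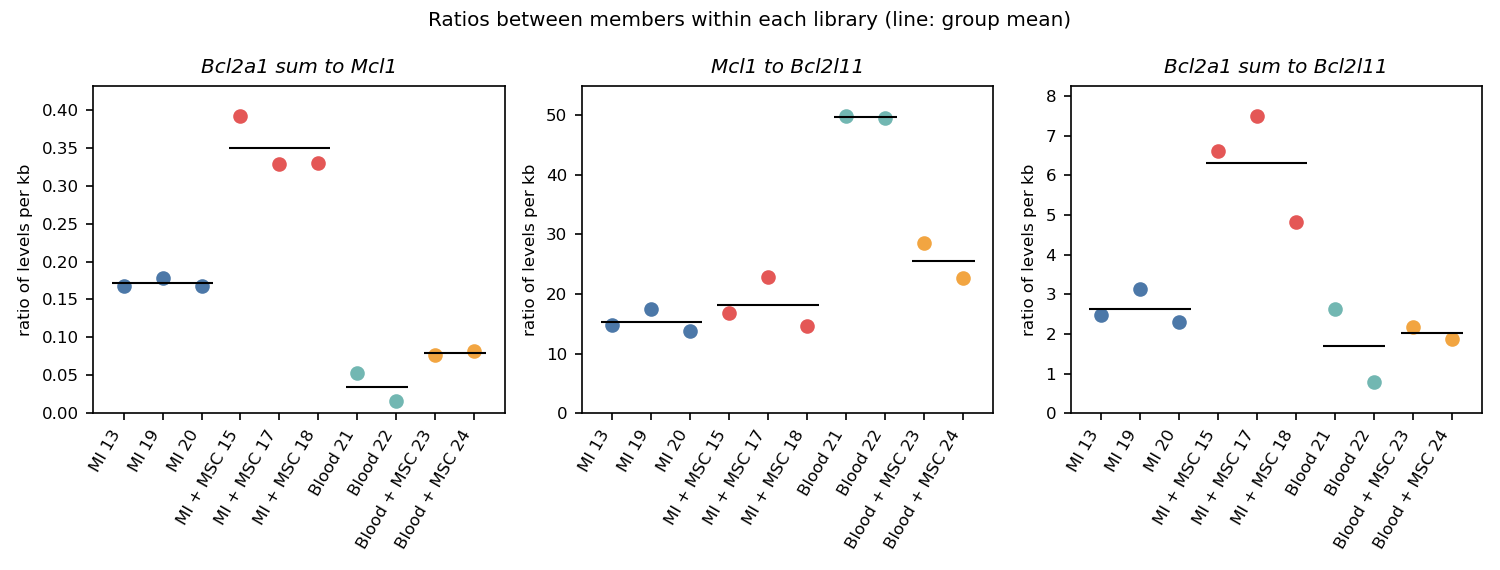
Ratios of levels per kb (vertical axes, from 0) between members within each of the 10 libraries, 1 point per library, with a line at each group mean. For the Bcl2a1 sum to Mcl1 ratio the MI points sit at 0.168 to 0.179 and the MI + MSC points at 0.328 to 0.392.

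Around the members, the other genes of the pathway did not pass the test for MSC in either tissue. Of 15 further BCL2 family genes, 9 had enough reads to be tested, of 12 genes of the apoptosome, caspases and their inhibitors 11, and of the death receptor arm all 7 and of MCL1 protein turnover all 4. In the heart and in blood, 0 of these were called with MSC in either direction by limma, but without Blood 22 Bcl2l13 and Birc2 were called in blood, where 13% of all genes were. The median log2 fold changes for MSC in the heart were 0.02, 0.11, 0.17 and -0.12 for these lists, against -0.01 for all genes. Pmaip1, which codes for NOXA, a BH3-only protein that binds MCL1 and A1, was at 33.6, 156 and 181 normalized counts in MI and at 253, 358 and 104 in MI + MSC libraries, which overlapped.

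Between MI and Blood, 10 of these genes were called, 5 in each direction, where 34.7% of all tested genes were called in either direction. Bcl2l2, a survival gene of many tissues, was higher in MI at 134, 57.7 and 51.0 normalized counts against 14.1 and 7.15 in the Blood libraries (2.64 on the log2 scale, limma adjusted p = 0.0023). Bcl2l13 was also higher (1.42), while Bbc3, which codes for the BH3-only protein PUMA, was lower (-1.63), as was the mitophagy receptor gene Bnip3l (-2.45), at 109, 275 and 264 against 1229 and 981. In the list of the apoptosome, caspases and inhibitors, Birc2, which codes for an inhibitor of apoptosis protein, was lower in MI (-1.54), and Cycs, which codes for cytochrome c, was higher (1.24). Birc5, a gene of dividing cells, was higher too (2.79), but it was listed at 0 in Blood 21 and 1.95 in Blood 22, so its fitted change depends on the pseudocount. It reached the filter mean of 10 normalized counts only through the cardiac libraries, with 5.72 or less in every blood library. The filter thus favoured its call. Tnfrsf1a, the TNF receptor gene, was lower (-1.73), and Huwe1, which codes for an MCL1 ubiquitin ligase, was higher (0.76). Without Blood 21 the calls fell from 10 to 6, where 29.6% of all genes were called. Huwe1, Bcl2l13, Bbc3, Birc2 and Birc5 were lost and Fas was gained. With MSC in both tissues, Bcl2l2 alone was called (1.97, limma adjusted p = 0.020), where 14.1% of all genes were. It lost that call without MI + MSC 15, MI + MSC 18, Blood + MSC 23 or Blood + MSC 24. Without MI 13 the calls rose to 4 (Cflar, Tnfrsf1a and Bnip3l added), where 22.9% of all genes were called.

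The genes whose profile over the 10 libraries was most like that of the Bcl2a1 sum were Dusp5, Ccl3, Ier3, Cxcl2 and Gm37560, out of 11539 candidates. Likeness was the root mean square difference of log2(normalized count + 2), each gene centred on its own mean, and it was 0.36, 0.42, 0.43, 0.44 and 0.45 for them, where the sum itself varied by 1.38 around its mean. Dusp5 codes for an ERK phosphatase, Ccl3 and Cxcl2 for chemokines and Ier3 for an immediate early protein. Dusp5 was at 75.6, 279.7 and 341 normalized counts in MI 13, 19 and 20, at 709, 877 and 319 in MI + MSC 15, 17 and 18, and at 40.9 to 128 in the blood libraries. For Mcl1 the most alike genes were Lilrb4a (0.15), Lilrb4b (0.17), Ier5 (0.20), Itprip (0.20) and Klf6 (0.21), where Mcl1 varied by 0.64. Lilrb4a and Lilrb4b, a pair of closely related receptor genes of myeloid cells, were high in Blood 21 and in MI + MSC 17 and lowest in MI 13, as Mcl1 was. All these profiles share the libraries and their size factors.

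**Figure D5:**
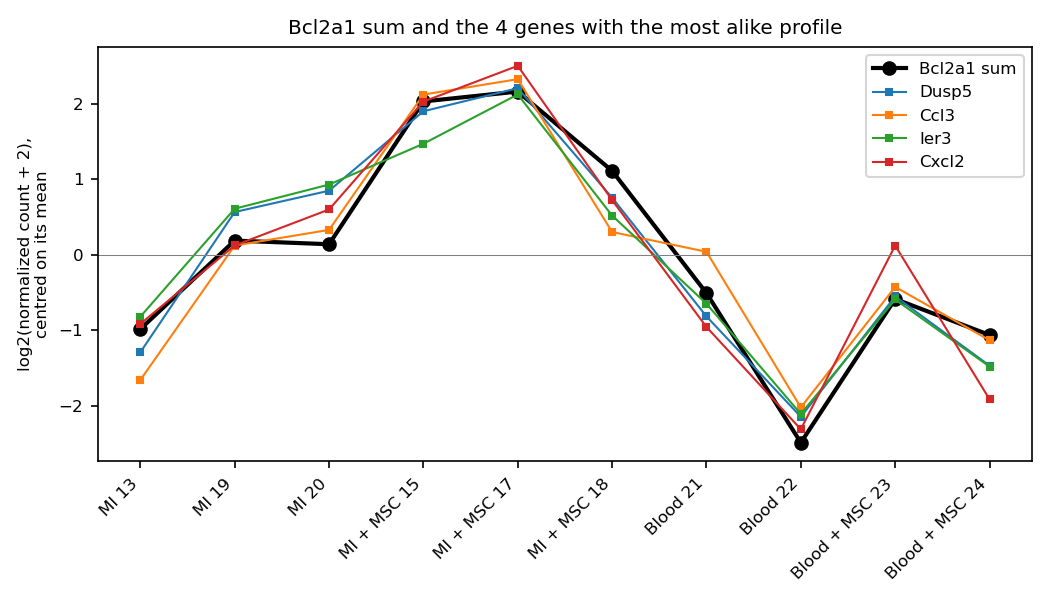
Log2(normalized count + 2), centred on each gene's mean (vertical axis), in the 10 libraries for the Bcl2a1 sum (black) and the 4 genes with the most alike profile. All 5 lines are highest in MI + MSC 17 and lowest in Blood 22, and Ccl3 departs most in MI 13 and MI + MSC 18.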

How the data were processed

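Ly6G-selected cells of infarcted mouse hearts or blood were sequenced as ribosome-depleted, stranded, paired-end libraries. The authors trimmed reads with Trimmomatic, removed duplicates with Picard, mapped to GRCm39 with STAR, counted genes with featureCounts, left out mitochondrial reads and divided by DESeq2 size factors. The deposited signal values are these normalized counts, and the table named as raw held the same values (281850 of 281850 equal). All of them (100%) were whole multiples of 1 read within 0.1 read, so reads were recovered from them.

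Genes averaging 10 or more normalized counts over the libraries (11549, all 10 members among them) were fitted with limma 3.58.1 on log2(value + 2), with 1 mean per group and 1 shared spread over the 10 libraries, so that fold changes of low genes are understated. A call needs a Benjamini-Hochberg adjusted p under 0.05 over all tested genes and a change of 0.5 or more on the log2 scale in either direction. For the interaction the adjusted p alone decides. Comparisons were MI + MSC against MI, Blood + MSC against Blood, both tissue comparisons and the interaction. The script was tested on simulated data. Alternatives were edgeR 4.0.16 and DESeq2 1.42.0 on recovered reads, other scaling, pseudocounts and filters, fits to the compared groups alone, and leaving out libraries. Per kb values use the length of the canonical transcript in a GRCm39 annotation, which may differ in release from the authors'.

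Members and gene lists were chosen with earlier results of these data known. Named genes are all members, called genes of the related lists (at most the 4 with the largest change per list and comparison), further BCL2 family genes with values, and the 5 most alike genes. The gene symbols Bcl2l10 and Diablo matched no row and were not analysed here, and 1 called gene of the related lists is counted but not reported here. The batch label repeats the group name, so batch and group cannot be told apart. Libraries of a group differed by more than sampling noise (chi-square per degree of freedom of 5.02 to 27.5).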

Additional observations from a re-analysis of the deposited data

Results flagged for a closer look

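Mcl1 differed with MSC in opposite directions in heart and blood: all 3 MI + MSC libraries lay above all 3 MI libraries, and both Blood + MSC libraries lay below both Blood libraries. The interaction was 1.74 on the log2 scale, with a limma adjusted p of 0.63 over all genes, so the difference between tissues did not pass its test. The order in the heart rested on a gap of 4166 against 4162 normalized counts between MI + MSC 18 and MI 20. The interaction ranged from 1.36 without MI 13 to 2.04 without Blood + MSC 23.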

How the results depend on the processing

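Depth limits the rarer members most, since 3 reads equal 25.2 normalized counts in MI 13 and 21.2 in Blood 21. With 2 or 3 libraries a group, single libraries decided several values. The number of members called in MI against Blood was 3, where 34.7% of all genes were called. It rose to 6 when values were scaled to library totals, where 3778 of 11549 genes were called higher and 812 lower. Without both shallow libraries (MI 13 and Blood 21) it was also 6, where 38.3% of all genes were called. With 1 library left out it ranged from 3 to 5. In MI + MSC against Blood + MSC it was 4, with a range of 1 to 5 with 1 library left out. Without both shallow libraries Bcl2 and Bcl2l11 were called there too, where 2577 of 11549 genes were called higher and 2187 lower. DESeq2 also called Bcl2l11 there, where it called 2057 genes higher and 1296 lower. For MSC in the heart the number of members called was 0, with a range of 0 to 0, and 1 by DESeq2. The interaction had 0, with a range of 0 to 1 (1 without Blood 22). In blood it stayed at 0 under leaving out any library. The cause was not tested.

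These values turned in sign. Bid with MSC in the heart (0.10) became -0.0242 scaled to library totals, -0.0054 by DESeq2 and -0.056 without both shallow libraries, with a range of -0.056 to 0.33 leaving out 1 library. In blood, Bcl2a1b (-0.11) became 0.15 scaled to library totals, 0.34 by edgeR and 1.26 without both shallow libraries (range -1.49 to 1.26). Bcl2l1 in blood (0.23) became -0.057 by edgeR, -0.091 by DESeq2 and -0.27 without both shallow libraries (range -0.27 to 0.74). Bak1 in blood (0.15) became -0.087 without both shallow libraries (range -0.087 to 0.38). The interaction of the Bcl2a1 sum (1.31) became -0.0600 without both. Leaving out 1 library also turned Bcl2 in blood (range -1.36 to 0.25), the Bcl2a1 sum in blood (range -0.32 to 1.67), Bcl2a1a in blood (range -0.11 to 1.64) and Bcl2a1b in MI against Blood (range -0.69 to 2.05). The heart log2 fold change of the Bcl2a1 sum kept its direction in each, from 1.61 without MI 13 to 2.32 without MI + MSC 18.

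Of the related apoptosis genes, 10 were called in MI against Blood, where 34.7% of all genes were. With these groups fitted alone it was 4, where 1091 of 11549 genes were called higher and 609 lower. In MI + MSC against Blood + MSC 1 was called, where 14.1% of all genes were. By edgeR it was 5 (1892 of all genes higher, 1801 lower) and by DESeq2 4 (2057 and 1296). With these groups fitted alone it was 8 (2176 and 1834), and without both shallow libraries 10 (2577 and 2187). Over the member values, leaving out 1 library gave the same direction and side of the threshold in 461 cases, a lost call in 15, a gained call in 4 and a turned sign in 10. Other settings gave 384, 0, 17 and 11. No paired analysis was possible because no label ties libraries to animals. The study drew blood by cardiac puncture before the heart was removed, so heart and blood libraries may come from the same mice. The comparisons of heart with blood and the interaction treat all libraries as independent.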
